A study of Mus musculus with 10 samples.

Results

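S100 proteins are small calcium-binding proteins. The 8 S100 genes described here were S100a8 and S100a9, which encode the subunits of calprotectin, together with S100a4, S100a6, S100a11, S100a10, S100a13 and S100a1. They were taken by gene symbol from the 26206 genes in the data, as a fixed list of 8. All 8 were among the 12988 genes tested. Another 8 S100 genes were listed in the files and none of them reached the level needed for testing.

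RNA was sequenced from 10 libraries of cultured mouse ER-Hoxa9-Lys-GFP cells of the C57BL/6 strain, grown with serum and stem cell factor. In these myeloid progenitors Hoxa9 is joined to a domain of the estrogen receptor that binds hormone, so that estradiol (E2) in the medium keeps it active. Every group carried this fusion. The untreated group kept E2 throughout, the 24h, 40h and 72h groups lost it for 24, 40 and 72 h and then had it back for 96, 80 and 48 h, and the 120h group lost it for 120 h. Each group had 2 libraries. The labels do not say whether these came from separate cultures, or whether the line is 1 clone, so each p-value reflects the scatter of these libraries alone, and that scatter could be technical. All cells were kept in culture, with no host tissue around them.

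S100 proteins carry EF-hand loops that bind calcium, act as dimers, and change the activity of partner proteins inside the cell. S100a8 and S100a9 pair as calprotectin, which fills much of the cytosol of neutrophils, withholds zinc and manganese from microbes, and once outside the cell signals through Tlr4 and the receptor Ager. Most S100 genes sit side by side in 1 chromosomal cluster, next to genes of the skin barrier.

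E2 loss for 120 h took the calprotectin genes from hardly measurable to the top of the transcriptome. S100a4, S100a6 and S100a11 rose as well, S100a10 rose slightly, S100a1 fell slightly and S100a13 did not pass the test. Under another scaling of the libraries S100a1 did not pass and S100a13 did. When E2 was withheld for 72 h and returned for 48 h, S100a8, S100a9, S100a4 and S100a11 stood above untreated cells, S100a6 and S100a13 stood below, and S100a10 and S100a1 did not pass the test. After the shorter withdrawals no S100 gene passed.

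S100a8, S100a9, S100a4 and S100a11 moved together, S100a6 did not follow them, and S100a1 and S100a13 begin next to each other. The 5′ flanking bases of these genes except S100a11 are shown. They come from RefSeq's GRCm38.p6 promoters, of which 7 of the 8 genes had an entry, cut to the bases outside the annotated exons. Each is written 5′ to 3′ along the gene's strand. Capitals mark matches, on either strand, to TTNCNNAA, the pair of short sites bound by C/EBP factors, or to TATAAA, the TATA box. S100a8 is at chr3:90668821-90668977 on the plus strand, S100a9 at chr3:90695722-90695971 on the minus strand, S100a4 at chr3:90603520-90603769 and S100a6 at chr3:90612644-90612881, both on the plus strand. The bases between S100a1 and S100a13, at chr3:90514393-90514434, are given along the strand of S100a13.
S100a8: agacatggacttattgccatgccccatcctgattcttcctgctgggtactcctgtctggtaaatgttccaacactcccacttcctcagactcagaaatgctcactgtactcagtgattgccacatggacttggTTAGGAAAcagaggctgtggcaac
S100a9: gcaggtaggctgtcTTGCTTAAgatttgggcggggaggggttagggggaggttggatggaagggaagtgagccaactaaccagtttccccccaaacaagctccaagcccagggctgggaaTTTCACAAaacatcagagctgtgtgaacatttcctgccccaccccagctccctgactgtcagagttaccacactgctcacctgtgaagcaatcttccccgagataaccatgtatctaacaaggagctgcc
S100a4: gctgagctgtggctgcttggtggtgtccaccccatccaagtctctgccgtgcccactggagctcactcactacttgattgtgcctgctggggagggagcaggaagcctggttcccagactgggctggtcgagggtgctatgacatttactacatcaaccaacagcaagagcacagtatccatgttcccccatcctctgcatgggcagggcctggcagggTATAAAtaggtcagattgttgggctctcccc
S100a6: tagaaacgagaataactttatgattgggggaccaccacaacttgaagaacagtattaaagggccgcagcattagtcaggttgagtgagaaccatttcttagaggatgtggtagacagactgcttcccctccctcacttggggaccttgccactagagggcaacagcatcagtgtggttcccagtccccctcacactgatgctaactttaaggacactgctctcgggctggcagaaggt
S100a1 and S100a13: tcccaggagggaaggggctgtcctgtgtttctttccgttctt

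Positions were counted from the first transcribed base of the RefSeq entry, which is 1. TTNCNNAA was found in S100a8 at -117 to -110 and in S100a9 at -236 to -229 and -130 to -123, and in 40.7% of all 32851 promoters in the table. TATAAA was found in S100a4 at -31 to -26 and in 13.6% of promoters. In S100a8 it lay at -30 to -25, in bases that the annotation counts as exon and that are not shown, and in S100a9 at 1 to 6. GAGGAAG, the core bound by PU.1, was found in S100a8 at -171 to -165 and in S100a4 at 19 to 25, and in 13.6% of promoters. TGACAG, a Meis site, was found in S100a9 at -75 to -70 and in 19.2% of promoters. TGATTNAT, a site for Hoxa9 with Pbx, was in none of the 7 windows and in 3.22% of promoters. The windows of S100a6, S100a11, S100a13 and S100a1 held none of these 5 motifs. A match is a description of these letters and not a site of binding, and the absence of a match says only that the letters are not in this window.

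Levels are given as RPKM, which scales reads by the length of the transcript and the size of the library. Gene bodies are those of GENCODE M21 on GRCm38, and the values come from the exons of a single transcript per gene. S100a8 spans chr3:90668978-90670035 on the plus strand and S100a9 chr3:90692632-90695721 on the minus strand, each with 3 exons. S100a8 was at 0.749 and 0.318 RPKM in untreated cells, 0.433 and 0.852 in the 24h group, 1.47 and 1.49 in the 40h group, 99.3 and 172.8 in the 72h group, and 6384.6 and 5694.8 in the 120h group. S100a9 was at 0.848 and 0.262 RPKM in untreated cells, 1.21 and 1.15 in the 24h group, 1.44 and 1.68 in the 40h group, 99.2 and 190.9 in the 72h group, and 6761.3 and 7027.3 in the 120h group. For both genes the 72h and 120h libraries lay above every other library and did not overlap each other, and both 40h libraries lay above both untreated ones. The counts behind these levels ran from 60 and 22 reads of S100a8 in untreated cells to 434478 and 453167 reads in the 120h group. The size of a change from untreated cells therefore rests on few reads at its low end.

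**Figure D1:**
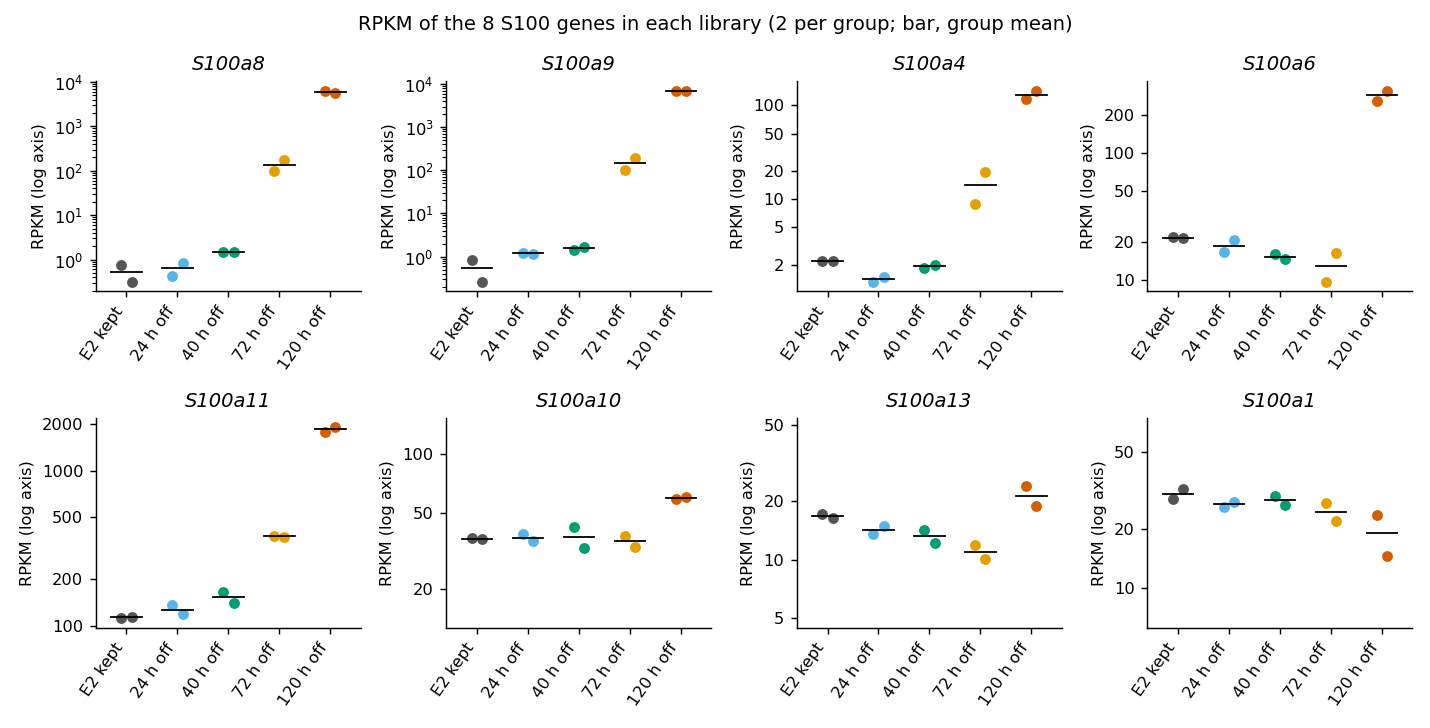
RPKM of each S100 gene (log axis, 1 panel per gene with its own range) in the 2 libraries of each group, with the group mean as a bar; E2 kept is the untreated group, and 24, 40 and 72 h off had E2 back afterwards. S100a8 and S100a9 climbed from below 2 RPKM through 136.0 and 145.0 RPKM to 6039.7 and 6894.3 RPKM, while S100a6 was lowest in the 72h group and highest in the 120h group.

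Changes were tested with limma on log2(RPKM + 1), a scale that understates the change of low genes, and called at a Benjamini-Hochberg adjusted p under 0.05 over all 12988 genes. From untreated to 120h cells S100a9 rose by a log2 fold change of 12.14 (SE 0.28, adjusted p = 1.3e-08) and S100a8 by 11.96 (SE 0.25, adjusted p = 1.06e-08). As ratios of group means these were 12422.1-fold and 11320.9-fold. Without untreated replicate 1 the ratios were 26314.0-fold and 18992.7-fold, without untreated replicate 2 they were 8130.0-fold and 8063.6-fold, and with a pseudocount of 0.1 the log2 values were 13.52 and 13.31. Of the 8 S100 genes 6 were called higher and 1 lower, when 80.3% of all tested genes were called, 27.5% higher and 52.7% lower. The S100 genes had a median of 3.83 on the log2 scale, and all genes tested had -0.36. Median-of-ratios scaling brought the median of all genes to -0.028 and the share of calls that were higher from 34.3% to 49.1%, and under it S100a1 was no longer called (-0.29, adjusted p = 0.215) and S100a13 was (0.71, adjusted p = 0.00155).

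In the 120h group S100a9 ranked 2 and S100a8 ranked 3 by mean RPKM among 17141 protein-coding genes, after ranks of 10501 and 10533 in untreated cells. The pair held 3.12% and 3.36% of all coding RPKM in the 120h libraries. They held 0.0479% and 0.0931% in the 72h group, and in the other 6 libraries between 0.000131% and 0.000738%. The share of the other 6 S100 genes moved over a smaller range, from 0.0498% and 0.0502% in untreated cells to 0.115% and 0.121% in the 72h group and 0.538% and 0.647% in the 120h group. The calprotectin share was thus below the summed share of the other 6 S100 genes in 8 libraries and above it in both 120h libraries. In the 72h libraries S100a11 alone made up 80.0% and 78.7% of the RPKM of those 6.

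**Figure D2:**
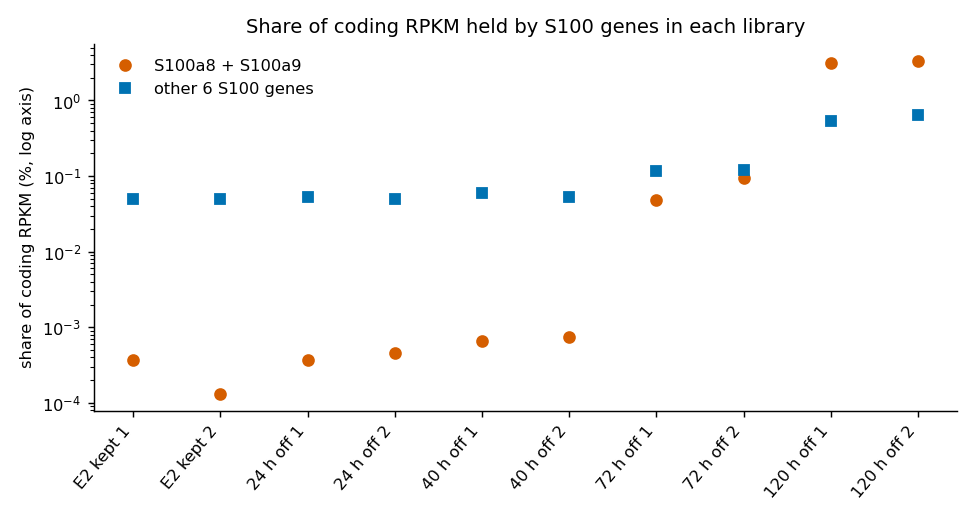
Share of the summed RPKM of protein-coding genes (percent, log axis) held by S100a8 with S100a9 (circles) and by the other 6 S100 genes (squares) in each library. The calprotectin share crosses above that of the other S100 genes in the 120h libraries, at 3.12% and 3.36% against 0.538% and 0.647%.

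With 1 transcript per gene the 2 subunits had similar RPKM in the 72h and 120h groups. The ratio of S100a8 to S100a9 was 1.0 and 0.905 in the 72h libraries and 0.944 and 0.81 in the 120h libraries. In the untreated, 24h and 40h libraries it lay between 0.358 and 1.21, where S100a8 had 22 to 107 reads. Across the 10 libraries log2 RPKM of the 2 genes had a Pearson r of 0.999, a description over libraries that share the same groups. The deposited S100a8 values came out as whole reads for a transcript of 392 bases, where the annotation used here has 486, so the ratio depends on the length the authors used.

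The add-back groups show where levels stood after E2 had been back for 48 to 96 h. In these groups no library was taken before E2 was returned. Levels that remained, fell back or rose further after the return therefore cannot be told apart. In the 72h group S100a8 and S100a9 stood 6.44 (SE 0.25, adjusted p = 7.68e-07) and 6.50 (SE 0.28, adjusted p = 1.25e-06) above untreated cells on the log2 scale. On that scale the 72h means lay at 53.9% and 53.6% of the distance from the untreated to the 120h means. On the linear RPKM scale they lay at 2.24% and 2.1%. Against the 40h group they rose by 5.74 (adjusted p = 3.32e-06) and 5.76 (adjusted p = 4.97e-06), and from 72h to 120h they rose by 5.51 (adjusted p = 8.63e-07) and 5.64 (adjusted p = 1.21e-06). In ratios of means each of these steps was large, 92.1-fold and 93.1-fold from 40h to 72h and 44.4-fold and 47.5-fold from 72h to 120h. Compared with untreated cells, 4 S100 genes were called higher and 2 lower in the 72h group, against 43.9% of all tested genes called, 21.6% higher and 22.3% lower. From 40h to 72h limma called 4 higher and 0 lower, against 27.7% of all tested genes called, 13.9% higher and 13.8% lower. From 72h to 120h it called 7 higher and 0 lower, against 77.4% of all tested genes called, 26.4% higher and 51% lower. For the falls, 0 S100 genes were lower at an unadjusted p under 0.05 in either of these steps, and limma voom on recovered reads called none lower. The medians of the S100 genes in these 3 comparisons were 0.84, 0.62 and 2.74, and those of all tested genes 0.02, 0.02 and -0.32.

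The libraries of the 72h group were not alike. Its replicate 2 held 1.74 times as much S100a8, 1.92 times as much S100a9, 2.15 times as much S100a4 and 1.68 times as much S100a6 as replicate 1. For S100a11, S100a10, S100a13 and S100a1 the same ratio ran from 0.807 to 0.976. The summed RPKM of 7 neutrophil markers (Ltf, Camp, Ngp, Mmp9, Cxcr2, Ly6g and Retnlg) also differed, 71.9 in replicate 1 and 128.3 in replicate 2, a ratio of 1.78.

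These markers and calprotectin were both high in the 72h and 120h groups, but not in a fixed ratio. The sum of the markers was 1.14 to 1.61 RPKM in the untreated, 24h and 40h libraries, and 7899.5 and 7960.9 in the 120h libraries. In the 120h group 7 of 7 rose, when 27.5% of all tested genes were called higher. The sum there rested mostly on Ngp (3596.9 RPKM) and Ltf (2296.5), while Cxcr2 was at 51.6 and Ly6g at 13.9. Calprotectin RNA stood at 1.04 and 0.508 times the summed markers in untreated cells, 1.2 and 1.25 times in the 24h group, 1.95 and 2.05 times in the 40h group, 2.76 and 2.83 times in the 72h group and at 1.66 and 1.6 times in the 120h group. The 6 monocyte and macrophage markers summed to 332.4 and 349.9 RPKM in untreated cells, 1008.8 and 1066.6 in the 72h group, and 1464.1 and 1390.4 in the 120h group. Of these 5 rose and 1 fell in the 72h group, and likewise in the 120h group. All tested genes were 21.6% higher and 22.3% lower in the former and 27.5% and 52.7% in the latter. Ccr2 fell from 111.6 RPKM in untreated cells to 41.7 and 35.1 in the 72h and 120h groups. Ly6c2 rose from 0.627 to 588.2 and 534.1. The untreated sum of these markers rested mostly on F13a1 (224.7 RPKM) and Ccr2, so it hides the size of the rises from low levels. From untreated to 120h cells Csf1r went from 1.66 to 242.0 RPKM, Adgre1 from 1.38 to 207.1 and Ms4a6c from 1.23 to 120.6. F13a1 stood at 288.3 RPKM in the 120h group. In bulk libraries fewer cells of a type and less RNA per cell cannot be told apart, and the part that cell type makeup has in these changes was not tested. Calprotectin is also a product of keratinocytes, and the 3 keratinocyte and epithelial markers in the files (Krt10, Krt18 and Cdh1) summed to at most 0.034 RPKM in any library. Of the 6 progenitor markers 4 fell and 2 rose in the 120h group, when 52.7% of all tested genes were called lower and 27.5% higher. Kit went from 154.9 RPKM in untreated cells to 103.1 in the 72h group and 21.1 in the 120h group, Meis1 from 10.9 to 1.23 and 0.904, Myb from 239.7 to 243.3 and 34.1, and Mpo from 2237.4 to 4235.5 and 320.4. Hoxa9 went from 55.1 to 87.8 and 96.2 RPKM, and Spi1 from 39.3 to 68.9 and 179.8. Whether the Hoxa9 values include reads of the fusion was not tested.

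After the shorter withdrawals no calprotectin gene passed the test. As ratios of means the 40h group stood 2.77-fold above untreated cells for S100a8 and 2.81-fold for S100a9, at levels below 2 RPKM. In the 40h group S100a8 had a log2 fold change of 0.71 (95% interval 0.13 to 1.29, adjusted p = 0.181) and S100a9 of 0.74 (0.10 to 1.39, adjusted p = 0.203). On scales that shrink low values less these were 1.4 and 1.5 (pseudocount of 0.1, adjusted p = 0.102 and 0.108) and 1.58 and 1.68 (voom, adjusted p = 0.365 and 0.397). Of the 8 S100 genes limma called 0 in this comparison, when 4.29% of all tested genes were called, 0.932% higher and 3.36% lower. At an unadjusted p under 0.05 there were 4, S100a8, S100a9, S100a11 and S100a13, and limma voom on recovered reads called 0. With array weights 5 S100 genes were called and with only these 2 groups in the fit 4, while leaving out the 120h group gave 1. Under the same settings the share of all tested genes called went from 4.29% to 22.0%, 15.3% and 13.9%. In the 24h group S100a8 had a log2 fold change of 0.10 (95% interval -0.48 to 0.68) and S100a9 of 0.51 (-0.13 to 1.16), each with adjusted p = 1. There limma and voom each called 0 of the 8, with 0 at an unadjusted p under 0.05, and 0% of all genes. Between 24h and 40h limma and voom each called 0 of 8, with 1 at an unadjusted p under 0.05 (S100a8, 0.60), when limma called 0.285% of all genes, 0.169% higher and 0.115% lower.

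**Figure D3:**
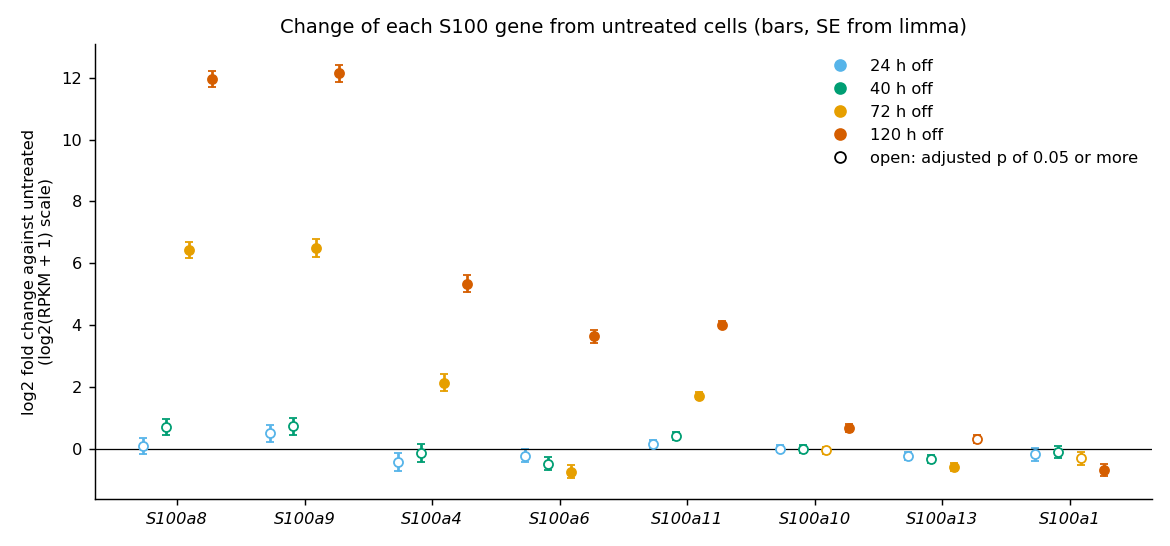
Log2 fold change of each S100 gene against untreated cells on the log2(RPKM + 1) scale in the 24h, 40h, 72h and 120h groups; bars are the standard error from limma, and open points did not reach an adjusted p under 0.05. All points of the 24h and 40h groups are open, and S100a6 and S100a13 lie below 0 in the 72h group and above it in the 120h group.

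S100a4 binds non-muscle myosin and is known from migrating and invasive cells. It lies at chr3:90603771-90606045 on the plus strand, with 3 exons. Its RPKM was 2.21 and 2.20 in untreated cells, 1.32 and 1.47 in the 24h group, 1.86 and 2.00 in the 40h group, 8.95 and 19.3 in the 72h group, and 115.8 and 143.5 in the 120h group. The 72h and 120h libraries lay above all others, and the 24h and 40h libraries lay below both untreated ones without passing the test. The rise to 120h was 5.34 (SE 0.28, adjusted p = 7.1e-07), and that to 72h was 2.15 (adjusted p = 0.000468). It followed calprotectin closely over the 10 libraries (Pearson r of 0.988 with S100a8 and with S100a9). The transcript model Gm42674 overlaps 302 of its 498 exonic bases on the same strand and had nearly the same values, so reads of the pair could not be separated.

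S100a11, a partner of annexin A1 that takes part in membrane repair and growth control, was the S100 gene with the highest RPKM in untreated cells. It lies at chr3:93520488-93526287 on the plus strand, with 3 exons. Its RPKM was 111.5 and 114.5 in untreated cells, 135.4 and 118.5 in the 24h group, 165.8 and 139.3 in the 40h group, 381.4 and 372.1 in the 72h group, and 1786.8 and 1904.8 in the 120h group. Every library from which E2 had been withdrawn lay above both untreated libraries. Over the 10 libraries S100a11 followed calprotectin as closely as S100a4 did (Pearson r of 0.988 with S100a8 and 0.989 with S100a9). The log2 fold change was 4.02 in the 120h group (SE 0.12, adjusted p = 3.88e-08), 1.73 in the 72h group (adjusted p = 1.47e-05) and 0.42 in the 40h group (95% interval 0.15 to 0.70, adjusted p = 0.0972). The 40h difference was called without the 120h group (adjusted p = 0.025). S100a11 made up 51.1 to 61.5% of the RPKM of the 6 genes outside calprotectin in the untreated, 24h and 40h libraries and 77.7 to 80.0% in the 72h and 120h libraries. It shares 41.13% of its 50-base windows with the pseudogenes Gm12854, Gm29240 and Gm7665, of which Gm12854 was listed at 8.66 to 179.2 RPKM, so its level as a single gene is uncertain.

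S100a6, or calcyclin, which binds Cacybp, took a different course. It lies at chr3:90612882-90624181 on the plus strand, with 3 exons. Its RPKM was 21.7 and 21.4 in untreated cells, 16.6 and 20.6 in the 24h group, 15.9 and 14.7 in the 40h group, 9.73 and 16.3 in the 72h group, and 256.2 and 308.7 in the 120h group. All 6 libraries with E2 given back lay below both untreated libraries, and both 120h libraries lay far above. In the 72h group S100a6 fell by 0.73 on the log2 scale (SE 0.21, adjusted p = 0.0239). That call was lost without 72h replicate 1 (-0.38, adjusted p = 0.102), without untreated replicate 1 (-0.71, adjusted p = 0.0985) or 2 (-0.74, adjusted p = 0.0909), and with no filter on low values (adjusted p = 0.0677). In the 120h group it rose by 3.65 (SE 0.21, adjusted p = 1.26e-06) against untreated and by 4.37 (adjusted p = 1.04e-06) against the 72h group. From 72h to 120h the mean of S100a6 rose 21.7-fold, beside 9.19-fold for S100a4 and 4.9-fold for S100a11.

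S100a10, which holds annexin A2 in a complex at the membrane and has lost the ability to bind calcium, differed little from untreated cells except in the 120h group. It lies at chr3:93555080-93564643 on the plus strand, with 3 exons. In the untreated, 24h, 40h and 72h groups its 8 libraries lay between 32.6 and 41.9 RPKM and the groups overlapped, and in the 120h group it was at 58.8 and 60.0. The rise to 120h was 0.68 (SE 0.12, adjusted p = 0.000769), a ratio of means of 1.62. In the 72h group its log2 fold change was -0.04, with a 95% interval of -0.32 to 0.23.

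S100a13, which helps export Fgf1 and Il1a without a signal peptide, and S100a1, best known from heart and skeletal muscle where it tunes calcium handling, begin head to head. S100a1 lies at chr3:90511034-90514392 on the minus strand and S100a13 at chr3:90514435-90524581 on the plus strand, with the 42 bases printed above between them. S100a13 was at 17.2 and 16.5 RPKM in untreated cells, 13.5 and 14.9 in the 24h group, 14.2 and 12.2 in the 40h group, 11.9 and 10.1 in the 72h group, and 23.9 and 18.9 in the 120h group. S100a1 was at 28.7 and 32.3 RPKM in untreated cells, 26.2 and 27.8 in the 24h group, 29.8 and 26.8 in the 40h group, 27.2 and 22.0 in the 72h group, and 23.7 and 14.5 in the 120h group. S100a13 was lowest in the 72h group and highest in the 120h group without overlap, whereas S100a1 was lowest in the 120h group, where its libraries overlapped the range of the 72h group. In the 72h group S100a13 fell by 0.58 on the log2 scale (SE 0.13, adjusted p = 0.00865), a call lost without untreated replicate 1 (adjusted p = 0.0567) or 72h replicate 2 (adjusted p = 0.065), and S100a1 had -0.30 (adjusted p = 0.256), which was called without the 120h group (adjusted p = 0.0383). From 72h to 120h S100a13 rose by 0.90 (adjusted p = 0.000324), and S100a1 had -0.38 (adjusted p = 0.116). Without 120h replicate 1 the latter was -0.72 (adjusted p = 0.00106). Against untreated cells S100a1 fell by 0.68 in the 120h group (SE 0.20, adjusted p = 0.0128). That call was lost with median-of-ratios scaling (-0.29, adjusted p = 0.215), with only the 2 groups compared (adjusted p = 0.06) and without untreated replicate 2 (-0.60). The size of this fall rested on the 120h libraries, at -1.02 without replicate 1 and -0.35 without replicate 2. S100a13 stood at 0.32 in the 120h group (SE 0.13, adjusted p = 0.0531). It was called with median-of-ratios scaling (0.71), quantile normalization (0.47) and voom (0.38), and was 0.48 without 120h replicate 2. Without 120h replicate 1 it was 0.15 (adjusted p = 0.265).

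The order of the levels changed over the groups. In untreated cells S100a11 was highest, followed by S100a10, S100a1, S100a6, S100a13 and S100a4, with no overlap between neighbours, and S100a8 and S100a9 came last with overlapping libraries. In the 120h group the order was S100a9, S100a8, S100a11, S100a6, S100a4 and S100a10, again with no overlap between neighbours, and S100a13 and S100a1 came last and overlapped.

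The other 8 S100 genes of the files stayed low in every library. The highest was S100a7a, a relative of the skin protein psoriasin, at 0.326 and 0.778 RPKM in the 120h libraries and at most 0.046 in the other 8. S100a5 reached 0.211 RPKM, S100a2 0.141, S100a3 0.138, S100a16 0.123, S100b 0.062, S100a14 0.058 and S100g 0.021. S100a14, S100a16, S100a3, S100a2, S100a5 and S100a7a lie within the same block of chromosome 3 as the measured genes.

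The S100 cluster spans 3.05 Mb of chromosome 3, with S100a1, S100a13, S100a4, S100a6, S100a8 and S100a9 in a block of 184.7 kb and S100a11 and S100a10 at the other end, 2.82 Mb away. S100a8 and S100a9 start 26.7 kb apart. The cluster holds 61 other protein-coding genes, most of them for the cornified layer of skin. Of these 12 were listed and 3 tested. Gm42674, the model that overlaps S100a4, had 5.34 in the 120h group, Ivl, which encodes involucrin, rose by 0.68 (adjusted p = 0.00107) to 1.66 RPKM, and Gm9774 fell by 0.46 (adjusted p = 0.00588). With median-of-ratios scaling Gm9774 was no longer called. Among measured genes of the block, changes in the 120h group ran from -0.68 for S100a1 to 12.14 for S100a9.

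**Figure D4:**
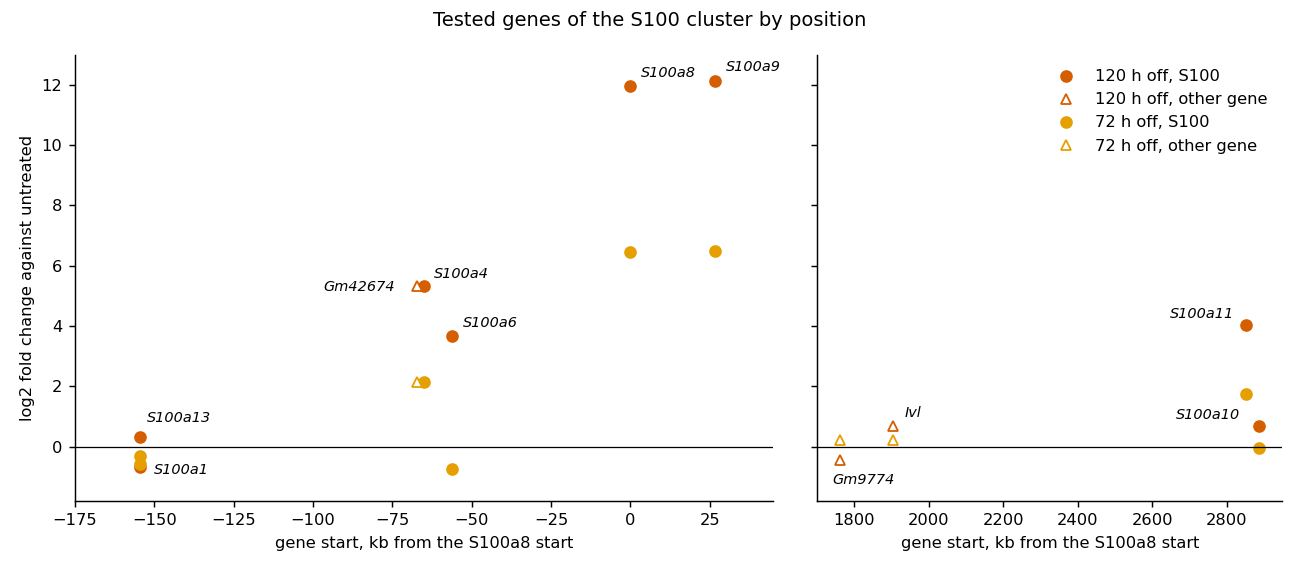
Log2 fold change against untreated cells of the tested genes of the S100 cluster (circles, S100 genes; open triangles, other genes), by distance of the gene start from that of S100a8 in kb, in the 72h (yellow) and 120h (orange) groups; the 2 panels show the 2 ends of the cluster. S100a8 and S100a9 stand at 11.96 and 12.14 in the 120h group, and S100a1 and S100a13, at the left end, at -0.68 and 0.32.

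Genes that work with S100 proteins were counted by list, without a test of the list. These counts stand beside 27.5% of all tested genes called higher and 52.7% lower in the 120h group, and 21.6% higher and 22.3% lower in the 72h group. Of 11 receptors and receptor partners of S100 proteins 9 were tested, and 6 rose and 2 fell in the 120h group (median 1.61). Cd14, the co-receptor of Tlr4, went from 0.153 RPKM in untreated cells to 15.2 in the 72h group and 201.6 in the 120h group (7.46, adjusted p = 9.7e-09). Tlr4 itself was at 24.3 RPKM in the 72h group and at 19.4 in the 120h group, from 1.09 in untreated cells (3.60 and 3.29, adjusted p = 1.53e-07 and 1.98e-08). Alcam, an adhesion molecule, rose by 3.23 and Cd69, a leukocyte activation marker, fell by 2.95. Ager reached a mean of 2.1 RPKM, with 0.91 (adjusted p = 0.0817), a difference that median-of-ratios scaling made a call (1.13). Of the 9, 5 were higher and 2 lower in the 72h group (median 0.35).

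Several annexins bind S100 proteins, and 9 of 12 annexins were tested. In the 120h group 8 rose and 1 fell (median 1.17), while in the 72h group 3 were higher and 5 lower (median -0.34). Anxa1, the partner of S100a11, rose with it, from 42.5 to 160.1 RPKM in the 72h group and 1706.9 in the 120h group (1.89 and 5.30, adjusted p = 2.18e-06 and 6.77e-09). Anxa4 and Anxa11 fell in the 72h group, by 0.61 (adjusted p = 0.000982) and by 0.54 (adjusted p = 0.000385), and rose in the 120h group, by 2.36 and by 1.60. Anxa5 rose by 1.71 in the 120h group. Anxa2, the partner of S100a10 and named here after its values were seen, had -1.42 in the 72h group and 0.33 in the 120h group.

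A list of 14 partners, labelled intracellular although it includes the surface receptor Plaur, had 10 genes tested. Of these 8 rose and 1 fell in the 120h group (median 2.21), with 5 higher and 0 lower in the 72h group (median 0.38). Calprotectin carries arachidonic acid to the NADPH oxidase of phagocytes. The oxidase's catalytic subunit Cybb went from 0.067 RPKM to 7.43 in the 72h group and 315.4 in the 120h group (2.94 and 8.21, adjusted p = 1.31e-05 and 1.47e-08), and the organizer Ncf1 rose by 2.92 in the 120h group. Plaur, the urokinase receptor, rose by 3.99, and Ahnak, a scaffold bound by S100a10 with annexin A2, by 2.72. Sugt1, a co-chaperone partner of S100a6, had -0.01 (adjusted p = 0.902), and under median-of-ratios scaling a called 0.38. The 1 that fell was Cacybp, the S100a6 binding protein (-1.5), named after its values were seen.

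EF-hand proteins outside the S100 family were mixed. Of 25 tested, 14 rose and 6 fell in the 120h group (median 0.57), or 17 and 4 with median-of-ratios scaling, and 5 rose and 8 fell in the 72h group (median -0.10). Gca, grancalcin of neutrophil granules, rose by 3.31 in the 72h group and by 2.40 in the 120h group, and Efhd2 by 1.90 in the 120h group. Rcn1 and Rcn2, calcium-binding proteins of the endoplasmic reticulum, fell by 2.34 and fell by 2.04 in the 120h group. Calm2, 1 of the calmodulin genes, had -0.21 (adjusted p = 0.0915), and Capns1, the small calpain subunit, had 0.25 (adjusted p = 0.056), and under median-of-ratios scaling a called 0.66.

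Transcription factors known at the calprotectin genes were all tested. In the 120h group 7 of 8 rose and 1 fell (median 1.56), and in the 72h group 4 rose and 2 fell (median 0.52), or 4 and 1 with median-of-ratios scaling. Cebpe, needed for the late granule genes of neutrophils, went from 7.20 RPKM to 38.9 and 115.1 in the 72h and 120h groups (2.28 and 3.81). Cebpd rose by 1.73 and 3.28, Cebpb by 0.69 and 2.14, and Spi1, which encodes PU.1, by 0.79 and 2.16. The 1 that fell, Cebpa (-1.79 in the 120h group), was named after its values were seen. All tested genes together had medians of 0.02 in the 72h group and -0.36 in the 120h group.

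**Figure D5:**
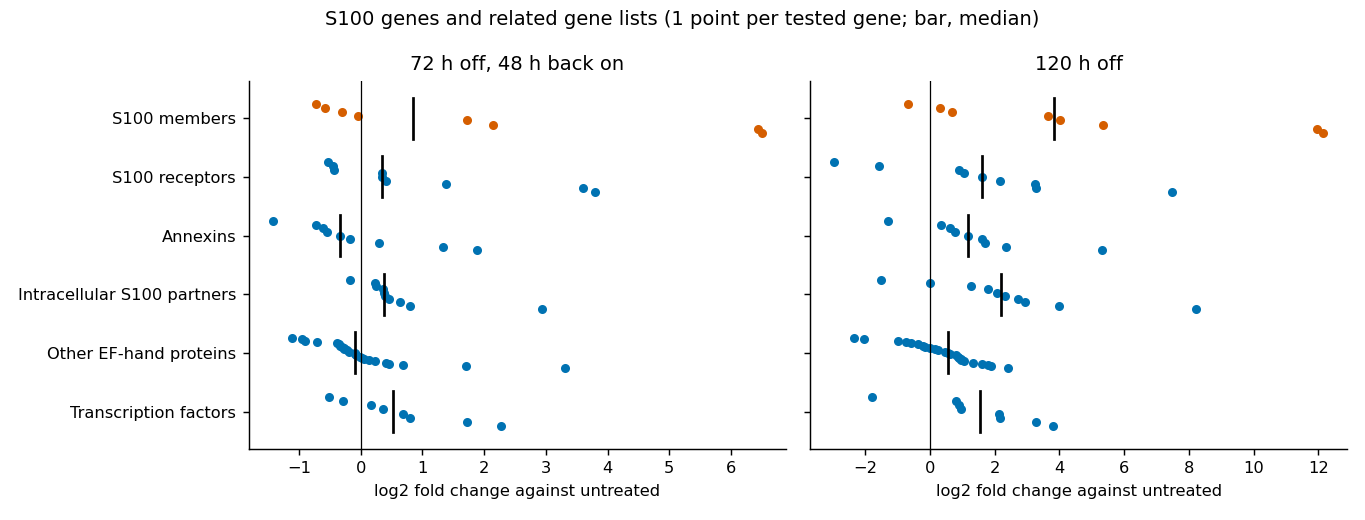
Log2 fold change against untreated cells of the S100 genes (orange) and of the tested members of 5 related lists (blue), 1 point per gene, in the 72h group (left) and the 120h group (right), with each list's median as a bar; the panels have different horizontal ranges. The S100 median is 0.84 in the 72h group and 3.83 in the 120h group, and the annexin median is -0.34 and 1.17.

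The genes most like each S100 gene were found as the 3 with the highest Pearson r of log2(RPKM + 1) over the 10 libraries, among 6778 protein-coding genes. For S100a8 and S100a9 these were Fgl2, Clec4a2 and Gpnmb (r from 0.9976 to 0.9989). Gpnmb, a glycoprotein of lysosomes, went from 0.057 RPKM in untreated cells to 23.8 in the 72h group and 264.6 in the 120h group. For S100a4 they were Fnip1, Klrk1 and Sirpb1c (0.9965 to 0.9979), and for S100a11 Slc7a8, Ap5b1 and Pak1 (0.9982 to 0.9986). For S100a6 they included Relb (0.9954) and Pitpna (0.9952). Relb, an NF-kappaB subunit, was at 2.65 RPKM in untreated cells, 1.54 in the 72h group and 17.2 in the 120h group. For S100a10 Rilpl2, Taf10 and Vrk2 were nearest (0.9716 to 0.9805). All of these r values rest on the same few groups and describe likeness only.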

How the data were processed

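The authors deposited RPKM values per Ensembl transcript, 1 file for each of 10 libraries with 79535 transcripts in each, per the file headers. Total RNA was column-purified and sequenced as TruSeq libraries, per the labels' protocols. STAR was the aligner and GRCm38 the genome build, per the submitters' processing notes. How reads were counted, on which annotation, with which use of strand and which filter is not given in the sources used here. RPKM times transcript length gave whole reads in 100% of 1008 to 1336 low values per library (within 0.1 reads), with denominators of 173620000 to 204380000 reads.

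Of the transcripts 77720 (97.72%) matched GENCODE M21. Each gene was represented by 1 transcript chosen from the annotation (coding, then APPRIS principal, CCDS and longest). Genes that reached 1 RPKM in 2 or more libraries were tested on log2(RPKM + 1) with limma 3.58.1 in R 4.3.3 (2-sided, mean-variance trend, group as the only term, all libraries sharing 1 spread with 5 residual and 3.04 prior degrees of freedom), with Benjamini-Hochberg adjustment over all 12988 genes in each of 7 comparisons. The steps were run on simulated data with changes planted only in genes well above the lowest levels. S100a8, S100a9 and S100a4 lay below that level in untreated cells, so the simulation does not cover them. Intervals are at 95%.

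The S100 genes, lists and rules were chosen with earlier results of these data known. The rule named all S100 genes, and per list up to 4 called genes with the largest change in the 120h group and up to 2 uncalled genes with the highest RPKM, and 3 genes of like pattern for 6 of the S100 genes. A gene that the rule named is not reported here. Motifs were searched in RefSeq promoters. Alternatives were another pseudocount, filter, scaling, choice of transcript, weighting or set of groups, a replicate block, voom on recovered reads, and leaving out each library.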

Additional observations from a re-analysis of the deposited data

Results flagged for a closer look

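The changes from untreated cells differed between the 72h and 120h groups for 7 S100 genes, by limma's test of the difference itself, when 77.4% of all tested genes were called in that comparison. The difference, as 120h against 72h on the log2 scale, was 5.51 for S100a8, 5.64 for S100a9, 3.19 for S100a4, 4.37 for S100a6, 2.29 for S100a11, 0.73 for S100a10 and 0.90 for S100a13. For S100a6 and S100a13 the 72h group lay below untreated cells and the 120h group above. Between the 40h and 72h groups the changes differed for 4 S100 genes, when 27.7% of all tested genes were called, by 5.74 for S100a8, 5.76 for S100a9, 2.28 for S100a4 and 1.30 for S100a11, as 72h against 40h. In each of these differences the libraries of the 2 groups did not overlap. The share of all tested genes without overlap is not given here, so this adds nothing to the calls. S100a9, S100a4, S100a6, S100a11, S100a13 and S100a1 also did not overlap between the 24h group and untreated cells, where limma called 0.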

How the results depend on the processing

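Over 56 pairs of S100 gene and comparison, 1160 alternative values were computed. Of these 1129 stayed on the same side of the threshold, 9 lost a call, 22 gained one and 0 called values turned. S100 genes called in 40h against untreated cells were 0, and 5 with array weights, 4 with only the 2 groups compared, 1 without the 120h group and 0 to 1 with 1 library left out. Summed over listed transcripts, the S100a8 to S100a9 ratio was 0.473 in the 72h group and 0.436 in the 120h group (0.953 and 0.877 with 1 transcript), where S100a9 has 2 listed transcripts and S100a8 1. The share of all 8 S100 genes in coding RPKM then was 0.0566% and 1.41% (0.189% and 3.83%), and 3.29% in the 120h group with the transcript of highest mean. With pairing by replicate number (replicate block) 8 S100 genes were called in 120h against untreated cells, S100a13 added (0.32, adjusted p = 0.0284), and the block changed no other call. Between groups, the deviations of same-numbered libraries from their group means correlated above 0.1 in 8 of 10 pairs of groups (r from 0.034 to 0.64). The labels do not say that a number marks a shared culture. Counts over all genes moved by over 1.5 times from 0 to as many as 34 (24h against untreated cells), from 557 to between 41 and 2859 (40h), from 5701 to as few as 3578 (72h), from 37 to between 0 and 492 (40h against 24h), and from 3600 to between 1975 and 6076 (72h against 40h). Depth limits S100a8 and S100a9 in the untreated, 24h and 40h libraries, where they had 22 to 160 reads, and with them the size of any change measured from those groups. The cause of these shifts was not tested.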
